A study of Homo sapiens with 6 samples.

Results

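The wide isolated p63 peaks are 1041 regions listed as p63 peaks in ME-180 cells, out of 6466 peaks in the deposited list. They were chosen by their measured width and spacing and by chromosome: they are the peaks wider than 250 bp that have no other peak less than 5000 bp away and do not lie on chromosomes 17, 19 or 22, which are known for their high density of genes. ME-180 is a human squamous carcinoma line of the uterine cervix. The list came from 1 immunoprecipitation with an antibody against p63 in ME-180 cells, for which the labels give no treatment, beside 1 input library from the same line, for which no peaks or signal were analysed here. The series also holds 4 RNA libraries, from ME-180 control cells, ME-180 cells labelled as p63 knockdown, SiHa cells with a vector and SiHa cells that overexpressed p63. Each group had 1 library, so nothing below has a replicate error, and no difference between peak classes was tested. Intervals printed with shares and medians are 95% intervals that treat the peaks as independent and cover counting error only.

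p63, the protein made from TP63, belongs to the family of p53 and is a transcription factor that specifies and maintains the basal layer of stratified epithelia such as the squamous lining of the cervix. It binds DNA as a tetramer at sites built from pairs of short half-sites with a CATG core, and much of its binding in keratinocytes is known to fall at enhancers far from gene starts. A peak is a stretch where immunoprecipitated DNA fragments pile up, and its width depends on the fragment length, on the number of neighbouring sites, on the depth of the library and on the rule of the peak caller. The sources used here do not give that rule. TP63 RNA was present in the line that was immunoprecipitated. The 5 TP63 transcripts in the table had between 393 and 5619 counts in the ME-180 control RNA library, against 0 to 6 in the library labelled knockdown. Transcript counts can share reads. The labels name no knockdown for the cells of the peak list.

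Width and spacing chose these peaks, so both are given as a description. Every one of the 6466 peaks starts on a multiple of 50 bp and ends 1 below one, which makes 50 bp the resolution of every width and distance. Widths in the whole list ran from 100 to 1000 bp. The closest peaks in it, 19 pairs, lay 51 bp apart from end to start, so at least these stretches were kept separate with a single 50 bp step between them. A wide peak in this list covers at least 6 such steps.

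Of 5489 peaks outside chromosomes 17, 19 and 22, 4167 were isolated and 1322 were clustered, that is, had another peak less than 5000 bp away. Among the isolated peaks, 1041 were wide and 3126 were narrower, a wide share of 25.0% (exact Clopper-Pearson interval 23.7 to 26.3). The clustered peaks held 298 wide ones, a share of 22.5% (20.3 to 24.9). On chromosomes 17, 19 and 22, 179 of 723 isolated peaks were wide, a share of 24.8% (21.7 to 28.1). The isolated peaks in and outside the gene-dense chromosomes therefore differed in their wide share by far less than the width of either interval. Chromosome 19 had 27.6% (22.8 to 32.7), chromosome 17 had 22.3% (17.5 to 27.7) and chromosome 22 had 22.7% (15.5 to 31.3).

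Most wide isolated peaks lay close to the width limit. The limit separated 1098 isolated peaks of 250 bp, just outside, from 530 of 300 bp, just inside, and the peaks of 300 bp made up 50.9% of the wide class. A further 205 were 350 bp wide, 119 were 400 bp and 91 were 450 bp. From 200 bp, the most frequent width with 1240 isolated peaks, the numbers fell at each step up to 700 bp, and no gap separated a wide class from a narrower one. Only 96 wide isolated peaks, or 9.22%, reached 500 bp or more, and 15 reached 650 bp or more. Together the 1041 peaks covered 373150 bp, which was 37.1% of the bases in isolated peaks and 24.0% of the bases in all peaks.

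**Figure D1:**
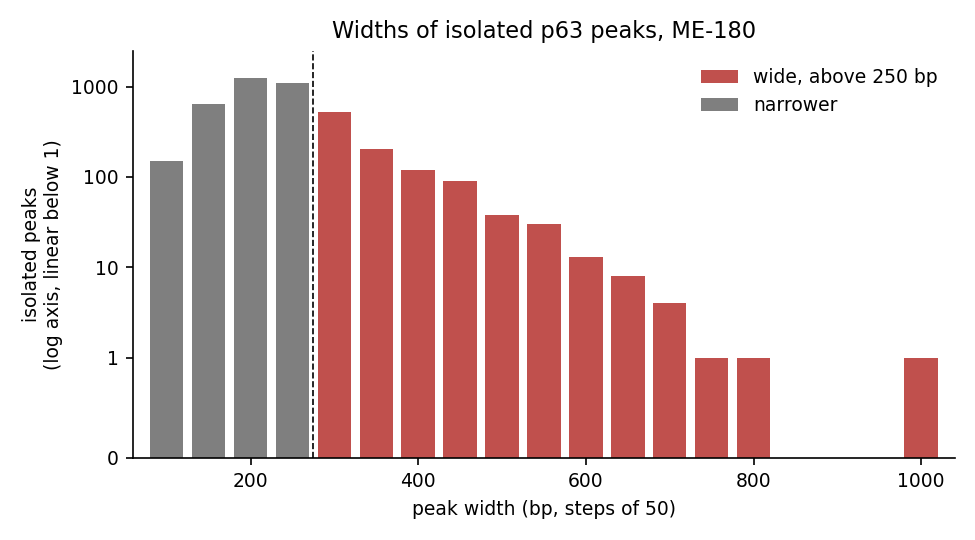
Number of isolated p63 peaks (vertical axis, log scale, linear below 1) at each peak width in bp (horizontal axis, 50 bp steps), outside chromosomes 17, 19 and 22, with wide peaks in red and narrower peaks in grey. The counts fall at each step from 1240 peaks at 200 bp to 4 at 700 bp, by unequal amounts. The dashed line at the width limit lies between 1098 peaks at 250 bp and 530 at 300 bp, a large fall but no empty width.

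Few peaks lay right beside the spacing limit. The wide isolated peak nearest to another peak was chr11:6255050-6255399 (build hg19, coordinates as in the file), 350 bp wide and 5001 bp before a peak of 200 bp. The next were chr10:104191600-104191949, at 5151 bp, and chr15:25303800-25304149, at 5251 bp, each 350 bp wide with a nearest peak of 250 bp. Just outside the limit, at 4901 bp, lay a pair on chromosome 7, each 150 bp wide. At 4851 bp lay a pair on chromosome 10 of 300 and 350 bp and another on chromosome 7 of 600 and 200 bp. The peak on chromosome 15 was isolated only in the sense of the rule. It had 16 other peaks within 100 kb and 28 within 1 Mb, and shared both numbers with its neighbours chr15:25295800-25296149, of 350 bp, and chr15:25361850-25362249, of 400 bp. For every other wide isolated peak the number within 100 kb was 6 or lower. The region around these 3, from 25226450 to 25455699 on chromosome 15, spans 229 kb and held 20 peaks in all, of 200 to 700 bp. Of these, 12 were clustered, 5 were narrower isolated peaks and 3 were the wide isolated ones. This region was picked after its values were seen.

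The distance to the nearest other peak beyond 5 kb was not set by the rule, and there the wide and narrower isolated peaks differed little. The median distance was 109 kb for wide peaks (interval from order statistics 103 to 121, n = 1041) and 122 kb for narrower peaks (114 to 128, n = 3126). The difference, wide minus narrower, was -12.5 kb, and the intervals overlapped. The 10th percentile was 20.3 kb for wide and 23.0 kb for narrower peaks, the 25th was 44.1 against 51.2 kb, the 75th 263 against 291 kb and the 90th 596 against 616 kb. Each of these percentiles was shorter for the wide peaks by a small margin. Within single chromosomes the order was mixed: of the 20 chromosomes with at least 50 isolated peaks, 11 had the shorter median distance for wide peaks. On chromosome 11 the wide peaks had a median of 55.9 kb and the narrower 88.2 kb, while on chromosome 7 the wide peaks had 169 kb and the narrower 93.6 kb. The neighbour on the other side, where there was one, lay at a median of 433 kb for wide peaks (400.2 to 476) and 452 kb for narrower peaks (424 to 478).

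**Figure D2:**
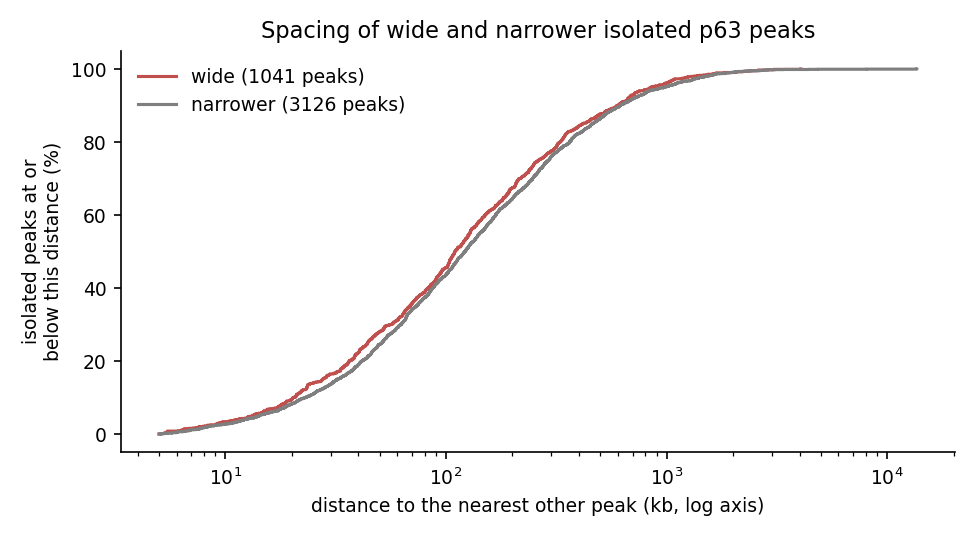
Percentage of isolated peaks (vertical axis) whose nearest other peak lies at or below a given distance in kb (horizontal axis, log scale), for 1041 wide peaks in red and 3126 narrower peaks in grey. The curves run close together over the whole range, with the wide curve slightly to the left around its median of 109 kb against 122 kb.

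Read the other way, the share of wide peaks was highest among the isolated peaks nearest to a neighbour, although all intervals overlapped. It was 27.5% (23.0 to 32.4) of 360 peaks at 5 to 20 kb and 25.4% (23.2 to 27.7) of 1482 at 20 to 100 kb. It was 24.7% (22.7 to 26.8) of 1773 peaks at 100 to 500 kb and 23.2% (19.7 to 26.9) of 552 beyond 500 kb. The number of other peaks within 1 Mb gave a similar order. Of 192 isolated peaks with none, 20.8% (15.3 to 27.3) were wide, and of 144 with more than 20, 29.2% (21.9 to 37.3) were wide. The clustered peaks, which are closer still, did not continue this order, since their share of 22.5% was below that of every distance class of isolated peaks. On chromosomes 17, 19 and 22 the clustered share was instead above the isolated one. It was 27.2% (21.8 to 33.1) of 254 clustered peaks there, against 24.8% of the isolated ones. With all chromosomes, the share at 5 to 20 kb was 25.2% (21.4 to 29.3) and that beyond 500 kb was 23.3% (19.9 to 26.9).

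Local crowding was nearly the same around both classes. Within 100 kb, 566 wide isolated peaks (54.4%, 51.3 to 57.4) and 1764 narrower ones (56.4%, 54.7 to 58.2) had no other peak. Within 1 Mb, wide peaks had a median of 6 other peaks and a mean of 7.56, and narrower peaks a median of 6 and a mean of 7.08. The highest number within 1 Mb was 33 in both classes. Only 40 wide peaks (3.84%, 2.76 to 5.20) and 152 narrower ones (4.86%, 4.14 to 5.68) were alone within 1 Mb. The nearest peak was itself wide for 267 of the 1041 wide peaks, or 25.6% (23.0 to 28.4), and for 750 of the 3126 narrower peaks, or 24.0% (22.5 to 25.5).

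Wide isolated peaks were listed on all 21 chromosomes with peaks that the rule allowed, in proportions close to those of narrower isolated peaks. Chromosome 1 held the most, 121 of its 499 isolated peaks, which was 11.6% of all wide and 12.1% of all narrower isolated peaks. Chromosomes 11 and 2 followed with 82 and 75. At the low end, chromosome 18 held 17, chromosome 13 held 18 and chromosome Y held 1, chrY:1404550-1404849, one of 2 isolated peaks there. Chromosome Y had only 6 peaks in the list. ME-180 comes from the uterine cervix, and whether these entries mark binding on chromosome Y was not tested. Among the 20 chromosomes with at least 50 isolated peaks, the share of wide peaks ran from 19.4% (11.9 to 28.9) on chromosome 13 to 32.8% (21.8 to 45.4) on chromosome 21, with a median of 24.9%. After chromosome 21 came chromosome 15 at 31.3% (24.5 to 38.7), chromosome 5 at 29.7% (23.5 to 36.5) and the X chromosome at 28.3% (22.4 to 34.8). The lowest share after chromosome 13 was that of chromosome 3, at 20.6% (16.1 to 25.8). The interval of every one of the 20 chromosomes contained the overall 25.0%.

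**Figure D3:**
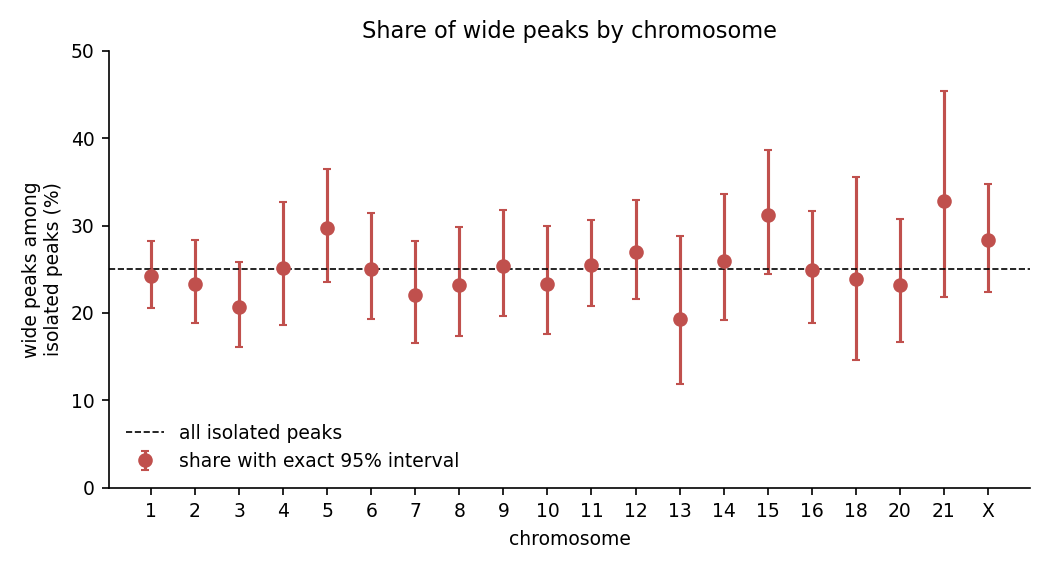
Share of wide peaks among isolated peaks in percent (vertical axis) on each of the 20 chromosomes with at least 50 isolated peaks (horizontal axis), with exact 95% binomial intervals as bars and the overall 25.0% as a dashed line. Every interval crosses the dashed line, and the widest intervals belong to chromosomes with few isolated peaks such as 21 and 18.

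The density of wide isolated peaks varied more between chromosomes than their share did. Counted per Mb between the outermost peaks of a chromosome, among the 20 chromosomes with at least 50 isolated peaks, it ran from 0.190 on chromosome 13 to 0.691 on chromosome 15. On chromosome Y, with its 1 wide isolated peak, it was 0.0465. Chromosome 11 had 0.612 and chromosome 21 had 0.578, while chromosome 4 had 0.210 and chromosome 18 had 0.221. The narrower isolated peaks had a density of 0.790 per Mb on chromosome 13, 1.52 on chromosome 15 and 1.79 on chromosome 11, and 0.624 and 0.701 on chromosomes 4 and 18. Chromosomes 11 and 15 were thus well above chromosomes 4, 13 and 18 in both classes.

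Along the chromosomes, both classes had their highest counts in the end parts, though the lead was small for wide peaks. Each chromosome was cut into 10 equal parts between its outermost peaks. The outermost peaks therefore fell in the end parts by construction. A peak on each side was present for 1034 of the 1041 wide and 3096 of the 3126 narrower peaks. Part 10 held 120 wide peaks, and the inner part 7 held 117. The outermost parts at the 2 ends together held 249 wide peaks, or 23.9% (21.4 to 26.6), and 791 narrower peaks, or 25.3% (23.8 to 26.9). Part 6 held the fewest of both, 7.11% of the wide and 7.45% of the narrower peaks. The share of wide peaks among isolated peaks lay between 22.6% (18.6 to 27.0) in part 3 and 28.6% (24.1 to 33.4) in part 5. These parts are relative, since no chromosome lengths or centromere positions of this build were used.

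**Figure D4:**
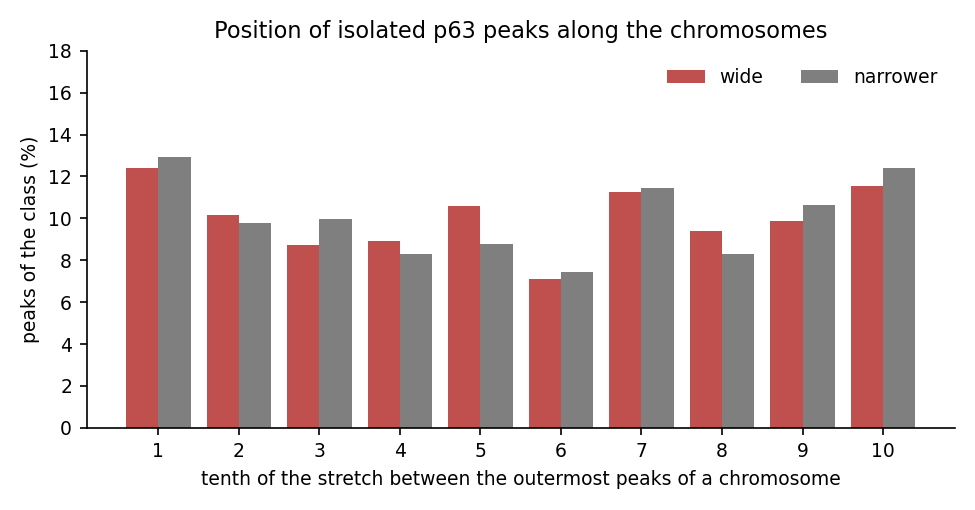
Percentage of the peaks of each class (vertical axis) in 10 equal parts of the stretch between the outermost peaks of each chromosome (horizontal axis, part 1 at the low coordinates), with wide isolated peaks in red and narrower isolated peaks in grey. Both classes are highest in the outermost parts, at 12.4% and 11.5% of the wide peaks, and lowest in part 6. Part 7 follows closely with 11.2% of the wide peaks, and the outermost peaks fall in the end parts by construction.

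On a finer scale, the isolated peaks fell into 290 windows of 10 Mb, of which 21 held no wide one, and the median was 3 wide peaks per window. The window from 60 to 70 Mb of chromosome 11 held the most, 26 wide among 71 isolated peaks, a share of 36.6% (25.5 to 48.9). The window from 150 to 160 Mb of chromosome 1 held 19 of 66, or 28.8% (18.3 to 41.3). With 14 wide peaks each followed the window from 50 to 60 Mb of chromosome 12, with 50 isolated peaks and a share of 28.0% (16.2 to 42.5), and that from 70 to 80 Mb of chromosome 15, with 32 and 43.8% (26.4 to 62.3). The remaining windows with at least 12 wide peaks held 12 each. They were 0 to 10 Mb of chromosome 11, with 24.0% (13.1 to 38.2) of 50 isolated peaks, 40 to 50 Mb of chromosome 21, with 38.7% (21.9 to 57.8) of 31, and 40 to 50 Mb of the X chromosome, with 46.2% (26.6 to 66.6) of 26. These 7 windows were picked out of 290 for their number of wide peaks, so their shares are descriptions, and these ran from below the overall 25.0% to well above it. The window from 60 to 70 Mb of chromosome 11 stood out in both classes, with 45 narrower isolated peaks as well.

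Of the 5489 peaks outside chromosomes 17, 19 and 22, 1041 were wide isolated ones, so many would occur singly in any order. The number expected was not computed. In the order of peaks along the chromosomes, 634 of the 1041 had no other wide isolated peak directly beside them. Of the longer stretches, 150 held 2 in a row, 21 held 3 and 9 held 4. One stretch held 8 in a row, on the X chromosome between 48916750 and 49687099, and it spans 770 kb. These 8 are among the 12 wide peaks of the window from 40 to 50 Mb of the X chromosome named above. Its peaks were 300 to 450 bp wide and lay 15.7 to 155 kb from their nearest neighbours. The first of the 8 is chrX:48916750-48917049, of 300 bp, and the last is chrX:49686750-49687099, of 350 bp. Among those between are chrX:48957600-48958049, the widest at 450 bp, and chrX:49305550-49305949, at 400 bp. The flanking peaks, chrX:48900900-48901099 and chrX:49774650-49774899, were 200 and 250 bp wide. This stretch was singled out after its values were seen.

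The 10 widest members were spread over 8 chromosomes, in surroundings that ranged from empty to crowded. The widest of all, chr7:90893700-90894699, was 1000 bp wide and 615 kb from its nearest neighbour, a peak of 200 bp. It was followed by chr1:197880950-197881749 at 800 bp and chr11:65190350-65191099 at 750 bp. The peak on chromosome 1 had no other peak within 1 Mb, while the one on chromosome 11 had 25 and lies inside the 10 Mb window with the most wide peaks. At 700 bp followed chr12:44199700-44200399, chrX:77359150-77359849, chr3:155571800-155572499 and chr1:153507450-153508149. Those on chromosomes 12 and X had no other peak within 1 Mb, with nearest distances of 1215 and 1067 kb. The peak chr1:153507450-153508149 had another peak, of 400 bp, only 9.05 kb away and 20 within 1 Mb. At 650 bp, chr4:54930050-54930699 was also alone within 1 Mb, and chr8:101962950-101963599 and chrX:21857750-21858399 lay 229 and 181 kb from their nearest peaks.

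In all, 4 of the 10 widest were alone within 1 Mb, against 40 of all 1041 wide and 152 of 3126 narrower isolated peaks. For 5 of the 10 the nearest peak was more than 500 kb away, against 128 of the 1041 and 424 of the 3126. The 10 were ranked by width, with ties in width broken by the larger distance, which favours distant peaks among those of 650 bp. The larger set of 96 peaks of at least 500 bp had a median nearest distance of 121 kb (88.5 to 175), which is close to that of narrower isolated peaks, and came from 20 chromosomes. By single widths, the median distance was 110 kb (96.4 to 125) at 300 bp, 109 kb (90.0 to 148) at 350 bp, 107 kb (85.4 to 148) at 400 bp and 104 kb (71.9 to 130) at 450 bp. It was 127 kb (73.3 to 249) at 500 bp and 112 kb (64.9 to 247) at 550 bp. The 13 peaks of 600 bp had a median of 123 kb and the 8 of 650 bp one of 64.0 kb, and the 4 of 700 bp one of 609 kb. Above 450 bp the medians thus went up and down on few peaks.

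On the other chromosomes with at least 20 members the widest peaks were between 500 and 650 bp. They were chr2:27192600-27193249 and chr6:26987050-26987699, both of 650 bp with 17 and 18 other peaks within 1 Mb. At 600 bp they were chr5:138939800-138940399, chr10:134000400-134000999, chr14:57277650-57278249 and chr15:89630700-89631299, with 4 to 7 others within 1 Mb. At 550 bp they were chr9:101705250-101705799, chr16:80837000-80837549 and chr21:37852200-37852749, and at 500 bp chr20:30639200-30639699. The genes at these positions were not looked up, because no annotation of hg19 was used here.

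The 5 wide peaks farthest from any other peak were 300 to 400 bp wide. So were most wide isolated peaks, since 50.9% of them were 300 bp wide, 19.7% were 350 bp and 11.4% were 400 bp. The most distant, chr4:134070050-134070349, was 300 bp wide, 4055 kb after the previous peak and 6131 kb before the next. It was followed by chr2:92128350-92128649 (300 bp, 3063 kb), chr5:22853250-22853549 (300 bp, 2872 kb), chr7:69063300-69063649 (350 bp, 2601 kb) and chr3:146263400-146263799 (400 bp, 2572 kb). Narrower peaks reached similar or larger distances. The 3 most distant of 250 bp were chr13:60737550-60737799 at 8035 kb, chr11:40316300-40316549 at 3017 kb and chr5:19981050-19981299 at 2872 kb. The last of these and chr5:22853250-22853549 are each other's nearest peaks. Centromeres and unsequenced stretches were not taken out of any distance, or of the spans behind the densities per Mb.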

How the data were processed

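Chromatin immunoprecipitation of p63 in ME-180 cells (1 library) gave the peak list, and 4 RNA libraries, 1 per group by the titles in the labels, gave counts. The authors deposited chromosome, start and end of each peak, with no score, and whole-number counts per RefSeq transcript in 2 tables. The submitters' processing notes name TopHat, Cufflinks, DESeq2 and build hg19, without roles. The peak caller, the use of the input and the depth of the immunoprecipitation were not stated in those notes or in the labels. Depth, fragment length and calling rule can all change peak width.

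Of the file's lines, 3 that did not hold a chromosome with a numeric start and an end were skipped. Width is end minus start plus 1, and distance is start minus the previous end. Neighbours were counted between peak centres over all peaks. Shares have exact Clopper-Pearson intervals and medians order-statistic intervals, both at 95%. TP63 counts are printed unscaled, and their ratio after scaling to the table totals. Python 3.11.15, pandas 2.3.3 and scipy 1.17.1 were used. The class of each of 1803 simulated peaks was recovered, with 0 errors.

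The members, limits and classes were chosen with earlier results of these data known. Named peaks are the 10 widest, the 5 most and 3 least distant, the 3 most distant of 250 bp, and the widest on each chromosome with at least 20 members. Other width and distance limits, centre distances and other sets of chromosomes were tried.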

Additional observations from a re-analysis of the deposited data

How the results depend on the processing

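The number of wide isolated peaks follows the width limit by construction. It was 2139 above 200 bp, 511 above 300 bp and 187 above 400 bp, which made 51.3%, 12.3% and 4.49% of isolated and 49.5%, 10.9% and 3.48% of clustered peaks. At these limits the nearest peak was wide for 51.9%, 15.7% and 1.60% of wide and 50.7%, 11.9% and 4.60% of narrower isolated peaks. The difference of 1.66 percentage points between the classes thus turned to -2.99 above 400 bp, where only 187 peaks were wide. The intervals there overlapped, at 0.33 to 4.62% for wide and 3.97 to 5.30% for narrower peaks. Neither the change nor its cause was tested. The wide share at 5 to 20 kb became 56.4%, 15.3% and 3.89%, and beyond 500 kb 49.5%, 10.7% and 4.35%. Above 400 bp the share was not higher at short distances. The intervals there, 2.14 to 6.44 at 5 to 20 kb and 2.81 to 6.40 beyond 500 kb, overlapped too far to give an order. With a distance limit of 1000 bp, the median distance was 103 kb for wide and 111 kb for narrower peaks, with 20000 bp it was 127 and 139 kb, and with all chromosomes 98.0 and 108 kb. The median number of other peaks within 1 Mb became 5 for both classes at 20000 bp and 7 for both with all chromosomes. The median distance, wide minus narrower, lay between -14.7 and -7.68 kb under all 8 alternatives, and the wide share of isolated minus clustered peaks between 1.01 and 3.23 points. Leaving out each of 21 chromosomes in turn gave a wide share among isolated peaks between 24.7% and 25.3%. The TP63 transcript with the most counts, 5619 in the ME-180 control and 6 in the library labelled knockdown, was 871-fold lower there after scaling to table totals (counting interval 399.8 to 2374) and 936.5-fold lower unscaled (430.0 to 2553). The class of 5 to 20 kb gave no value with the limit of 20000 bp, and no gene or sequence alternative was run, since no genome of this build was used. No paired analysis was possible because each group had 1 library. With 1 peak list and no peak score, the spread of widths between repeat experiments is unknown, and widths are known only to 50 bp.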
